A study of Mus musculus with 2 samples.

Results

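Serpin genes were described in fetal thymic stroma of the mouse, in 2 culture formats. The members are the 53 genes whose name in the array files begins with Serpin, a clade letter from a to i and a number, with Serping1 left out, of 19505 genes with a symbol on the array. They are read by 72 probes, 34 genes by 1 probe and 19 genes by 2. Each of 2 two-colour arrays set RNA of cells in reaggregation thymus organ culture (RTOC), in which dispersed stromal cells pack together again on a membrane, against RNA of such cells spread on a dish (2D culture). Both cultures lasted 72 h. The arrays are called E14.5 and E15.5 after the stage of the fetuses. The stroma of 1 array came from E14.5 lobes of C57BL/6 fetuses kept for 8 days in organ culture, and that of the other from E15.5 lobes kept for 9 days. All lobes had received 1.35 mM deoxyguanosine, which depletes haematopoietic cells, so every culture shares that treatment. The methods name no step that sorted the stromal cells before culture, and RNA was taken from the mixture.

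RTOC carried Cy5 and 2D culture Cy3 on both arrays, so a preference of a probe for a dye cannot be told apart from the culture. The stage, the days of organ culture and the array likewise cannot be told apart, and the spread between the arrays includes them. Values are log2 ratios of RTOC over 2D culture from quantile-normalized processed signals, tested against 0 with limma on 2 arrays. A higher or lower value may reflect the number of cells of a type or the RNA per cell, which bulk RNA cannot separate. Of all probes, 53.1% to 60.9% were well above background in a given channel. Thymic epithelial markers were above background in all channels, with 3 of 7 higher in RTOC, 1 lower and 3 that did not pass. Of 7 mesenchymal markers 3 were higher and 4 lower. Of 6 myeloid markers 4 were higher and 2 did not pass, and all 6 were well above background in both cultures.

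Serpins share a fold in which an exposed reactive centre loop is offered to a protease as bait. In inhibitory members the protease cuts the loop, stays covalently bound and is carried across the serpin, which traps both molecules. Clade A members are mostly secreted plasma proteins made by the liver, clade B members are mostly intracellular, and a few members such as Serpinh1 and Serpinf1 inhibit no protease. The clade B, and most of the clade A, genes of the mouse lie in tandem clusters with several close copies.

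A gene was tested if, on each array, one of its probes exceeded background clearly ("well above background", a flag of the scanner software) in either channel, and its brightest such probe was used. This held for 28 of the 53 serpin genes. Of these, 9 were higher in RTOC and 11 lower at an adjusted p under 0.05, against 15.3% higher, 13.6% lower and 28.9% in either direction over all 23685 probes tested. A gene seen in only 1 culture passed the filter through that culture, so the 23 serpins with all 4 channels well above background were also counted, and 5 of them were higher and 11 lower. Over the 20158 probes of that kind, 11.8% were higher and 13.2% lower, or 24.9% in either direction. The median log2 ratio of these 23 serpins was -0.97, and that of the 12074 genes of that kind was -0.03. At least 2-fold on both arrays, 7 serpins were higher and 10 lower, against 10.8% and 9.34% of all probes tested.

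The clades differed in their counts. Clade A had 4 genes higher and 0 lower of 6 tested, and clade B had 4 higher and 9 lower of 16 tested. Over all probes tested, 15.3% were higher and 13.6% lower. Among genes with all 4 channels well above background, clade A had 2 higher and 0 lower of 3. Clade B had 2 higher and 9 lower of 14, against 11.8% and 13.2% of all probes of that kind. Clades C and F each had 1 gene tested that did not pass, Serpinc1 and Serpinf1. In clade H the single gene Serpinh1 was lower, and in clade I Serpini1 was higher. Of the 25 genes not tested, 23 had no channel well above background, among them the single clade D gene Serpind1 (heparin cofactor II), Serpinf2 (α2-antiplasmin) and Serpini2. The remaining 2 were Serpinb3a and Serpinb9e. Differences between clades were not tested.

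**Figure D1:**
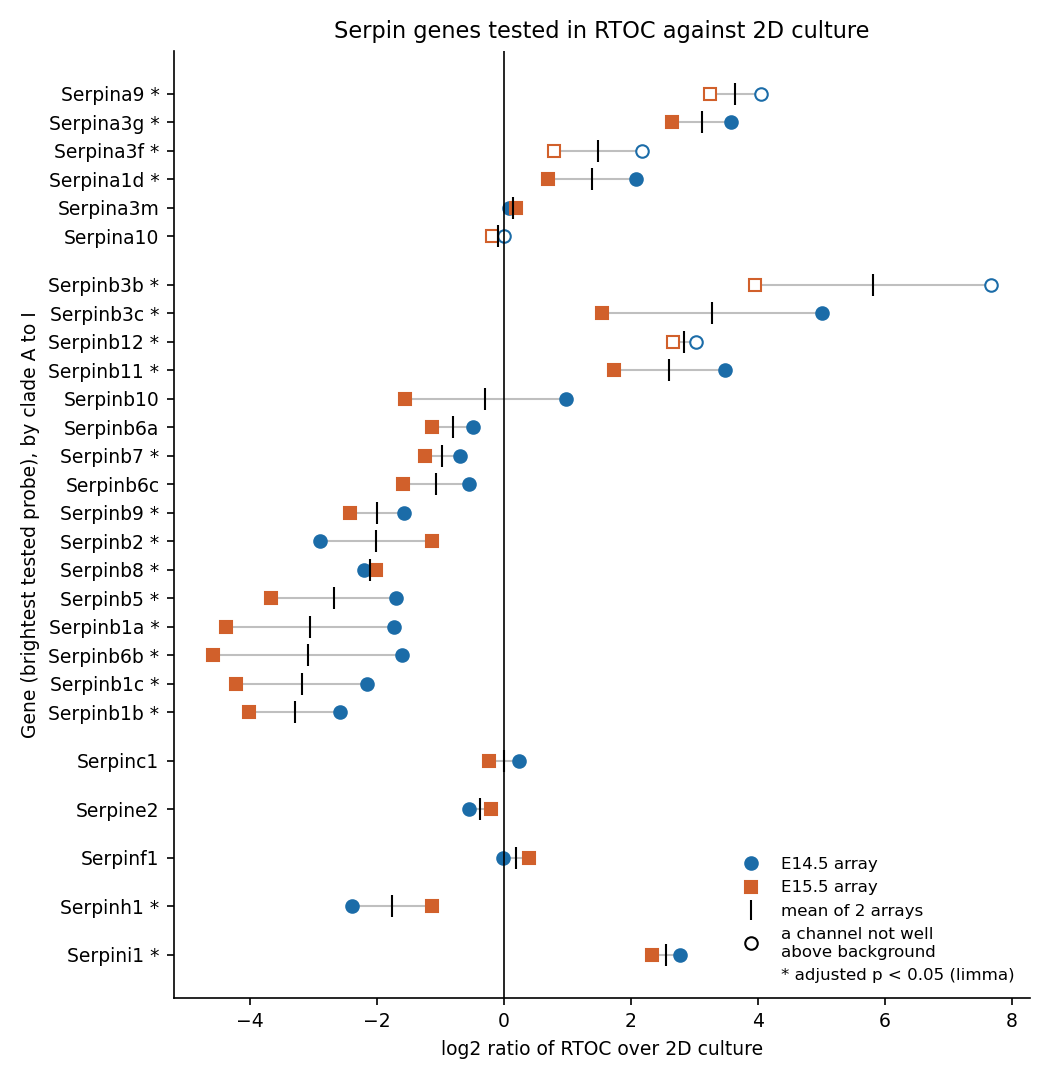
The horizontal axis gives the log2 ratio of RTOC over 2D culture for the brightest tested probe of each serpin gene shown, grouped by clade from A at the top to I at the bottom. Circles are the E14.5 array, squares the E15.5 array and ticks their mean, open symbols mark genes with a channel not well above background, and asterisks mark an adjusted p under 0.05. Called clade A genes lie to the right of 0 and most called clade B genes to the left, with the open points of Serpinb3b farthest to the right.

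The inhibitors of plasminogen activators described here went in different directions. Serpinb2 (plasminogen activator inhibitor 2), which inhibits urokinase and is largely kept inside the cell, was lower in RTOC. Its intensity was 10701 (2D) and 1438 (RTOC) at E14.5, and 1446 and 662 at E15.5. The 2D value of the E15.5 array was thus about as low as the RTOC value of the E14.5 array, and the cultures barely separate across arrays. Within arrays the log2 ratio was -2.90 and -1.13, a mean of -2.01 ± 1.25 (SD, n = 2 arrays; SE 0.45, adjusted p = 0.0264 from limma). A second probe overlaps the first by 20 bases and fell by 1.15 on the log2 scale (adjusted p = 0.0471 from limma). The call was lost under another processing of the spots, a normexp background correction of mean signals with loess normalization within each array (written normexp and loess from here on), where the ratio was -1.65 (adjusted p = 0.106 from limma). The second probe is shown because it shares part of the sequence read by the first, with the shared 20 bases in capitals.
Serpinb2: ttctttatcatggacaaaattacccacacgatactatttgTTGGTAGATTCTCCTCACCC

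Serpini1 (neuroserpin), an inhibitor of tissue-type activator known from neurons, was higher in RTOC. Its intensity was 210 (2D) and 1433 (RTOC) at E14.5, and 147 and 742 at E15.5, without overlap between the cultures. The log2 ratio was 2.77 and 2.34, a mean of 2.55 ± 0.30 (SD, n = 2 arrays; SE 0.27, adjusted p = 0.00311 from limma), which is 5.87-fold. After normexp and loess it was 1.28, still past the threshold (adjusted p = 0.0333 from limma).

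Serpine2 (protease nexin 1), which inhibits thrombin and urokinase at the cell surface, had intensities of 2394 and 1693 in 2D culture and of 1630 and 1469 in RTOC, with the E14.5 array first. Its mean log2 ratio of -0.38 ± 0.25 (SD, n = 2 arrays) did not pass (SE 0.26, adjusted p = 0.314 from limma). Neither probe of Serpina5 (protein C inhibitor), which also inhibits urokinase, was well above background in any channel. The probe of Serpine2 is printed as the member of this group that was bright in both cultures and did not pass the test.
Serpine2: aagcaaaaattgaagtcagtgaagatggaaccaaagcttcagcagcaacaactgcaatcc

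**Figure D2:**
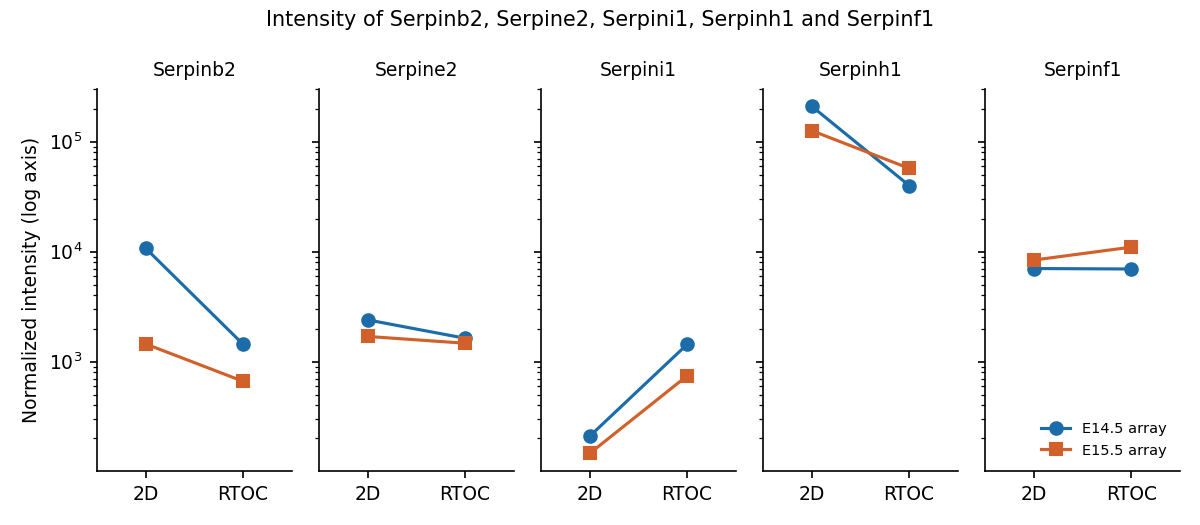
The vertical axis is the quantile-normalized intensity on a log axis, and each panel joins the 2D and RTOC channels of an array for 1 gene, with the E14.5 array as circles and the E15.5 array as squares. Lines fall for Serpinb2 and Serpinh1, rise for Serpini1, and are nearly level for Serpine2 and Serpinf1. Intensities of different genes come from different probes and are not comparable between panels.

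The other genes of the plasminogen system were taken from a list of 10, of which 9 were tested, 1 higher and 5 lower in RTOC. Plau, the gene of urokinase, was at -1.53 and -1.81, a mean of -1.67 (adjusted p = 0.00886 from limma). Plaur, the gene of its receptor, was at -2.23 and -2.22, a mean of -2.23 (adjusted p = 0.00372 from limma). S100a10 and Anxa2, whose products form a plasminogen-binding complex on the cell surface, had means of -1.70 and -2.04. The clearance receptor gene Lrp8 did not exceed background clearly in RTOC, where it was at least 1.21-fold lower. Vtn, the gene of vitronectin, an adhesive plasma and matrix protein, did not exceed background clearly in 2D culture, so that RTOC was at least 1.80-fold higher. Plat (-0.81), Lrp1 (-0.72) and Vldlr (0.52) did not pass, and Plg, the gene of plasminogen, was not well above background in any channel. The list's median over the 9 genes was -1.67.

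Serpinh1 (heat shock protein 47) binds folded procollagen in the endoplasmic reticulum and assists its export. It had an intensity of 209302 (2D) and 39901 (RTOC) at E14.5, and 125677 and 57193 at E15.5. Both RTOC values lay below both 2D values. The log2 ratio was -2.39 and -1.14, a mean of -1.76 ± 0.89 (SD, n = 2 arrays; SE 0.37, adjusted p = 0.0211 from limma), which is 3.40-fold lower. After normexp and loess it was -1.50 and no longer past the threshold (adjusted p = 0.0644 from limma).

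From a list of 19 genes of collagen folding and export, all tested, 0 were higher and 9 lower, with a median of -0.59. P4ha2 (-2.25) and P4ha1 (-1.15) encode subunits of prolyl 4-hydroxylase, and Plod2 (-2.04), Plod1 (-1.27) and Plod3 (-1.24) encode lysyl hydroxylases. P3h1 (-1.19), a prolyl 3-hydroxylase gene, and Fkbp10 (-1.71), the gene of a collagen chaperone, were lower as well. The collagen I genes Col1a1 and Col1a2 were at -2.17 and -1.23, while Col3a1 was at 0.58 and did not pass. Ppib (-0.10) and Crtap (-0.11), whose products form the prolyl 3-hydroxylation complex with that of P3h1, did not pass. The mesenchymal markers that moved with Serpinh1 were Pdgfrb (-1.22) and Thy1 (-1.25) besides the collagen I genes, whereas Pdgfra (2.84), Dcn (1.94) and Lum (4.55) were higher. The summed intensity of the 7 mesenchymal markers was 301814 to 405573 in 2D culture and 226982 to 247512 in RTOC. In 2D culture most of it came from Col1a1 (198326 at E14.5 and 178658 at E15.5) and Col1a2 (128935 and 81818). In RTOC Col1a1 was at 35832 and 48602, and Col1a2 at 41478 and 46363. The sum therefore does not show that Pdgfra, Dcn and Lum were higher. The part of these markers in the result was not tested.

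**Figure D3:**
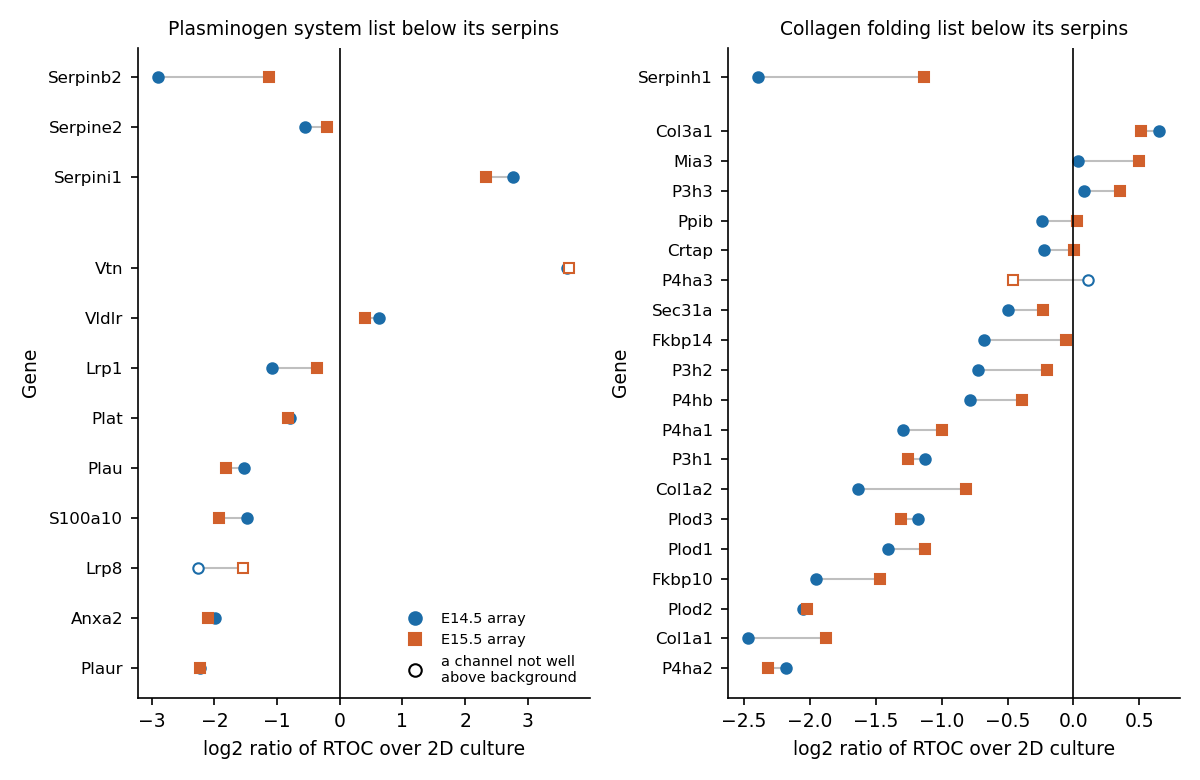
The horizontal axes give the log2 ratio of RTOC over 2D culture on the E14.5 array (circles) and the E15.5 array (squares), with open symbols for genes with a channel not well above background. On the left, 3 inhibitors of plasminogen activators stand above the 9 tested genes of the plasminogen system list, of which 5 called genes lie to the left of 0 and Vtn to the right, and on the right Serpinh1 stands above the 19 genes of collagen folding, from Col3a1 at 0.58 to P4ha2 at -2.25.

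Serpinf1 (pigment epithelium-derived factor), a secreted non-inhibitory serpin known to restrain vessel growth, was well above background in every channel. Its intensity was 7019 and 8383 in 2D culture and 6951 and 10981 in RTOC. The log2 ratio was -0.01 and 0.39, a mean of 0.19 ± 0.29 (SD, n = 2 arrays) that did not pass (SE 0.26, adjusted p = 0.622 from limma). Its other probe had a mean of -0.17, also not past the threshold. Serpinc1 (antithrombin), the plasma inhibitor of thrombin and factor X, had intensities from 141 to 180 over the 4 channels and log2 ratios of opposite sign, 0.24 and -0.23, with a mean of 0.00 (adjusted p = 0.995 from limma). Its second probe was well above background in RTOC only, where it was at least 1.06-fold higher, and did not pass (adjusted p = 0.0616 from limma).

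Clade A held 20 genes, of which 19 lie on chromosome 12 between 103616675 and 104414334 of the mouse assembly GRCm38.p6, and Serpina7 lies on the X chromosome. Of the 20, 14 had no channel well above background, among them Serpina6 and Serpina7, the carriers of corticosteroids and thyroxine, and Serpina3n. Serpina3g, an intracellular inhibitor of cysteine cathepsins, had an intensity of 1048 (2D) and 12506 (RTOC) at E14.5, and 873 and 5498 at E15.5, without overlap. The log2 ratio was 3.58 and 2.65, a mean of 3.12 ± 0.65 (SD, n = 2 arrays; SE 0.32, adjusted p = 0.00296 from limma), which is 8.67-fold higher. It was 2.67 after normexp and loess and still past the threshold (adjusted p = 0.0231 from limma).

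Of the other 3 called clade A genes, Serpina9 (centerin) is known from germinal centre B cells. It had an RTOC intensity of 332 and 371, did not exceed background clearly in 2D culture, and was thus at least 1.62-fold higher. Its adjusted p of 0.00213 from limma belongs to the ratio of processed signals, which has no measured 2D side, and not to this bound. Serpina3f was likewise measured in RTOC only, at least 1.25-fold higher by its brighter probe and at least 1.23-fold by the other. Serpina1d, a copy of the α1-antitrypsin gene, was at 123 in 2D culture on both arrays and at 520 and 199 in RTOC. Its log2 ratio was 2.08 and 0.70, a mean of 1.39 ± 0.98 (SD, n = 2 arrays; SE 0.39, adjusted p = 0.0467 from limma), and the call was lost after normexp and loess (0.44). Serpina10 and Serpina3m were tested and did not pass, at -0.09 and 0.14. The Serpina1 and Serpina3 genes are close copies, and whether a probe also binds transcripts of a neighbour was not tested.

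Hepatocyte markers were examined beside clade A because most of its members are liver genes. Alb, measured in RTOC only, was at least 1.40-fold higher there. Afp was at 325 and 91.8 in 2D culture and at 4196 and 854 in RTOC. Apoa1, Apoa2 and Ttr were not well above background in any channel. The summed intensity of the 5 markers was 164 to 442 in 2D culture and 985 to 4655 in RTOC, and its part in the clade A values was not tested.

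Clade B held 24 genes, 12 on chromosome 1 between 106861175 and 107608978 and 12 on chromosome 13 between 32842092 and 34002794. Of the chromosome 1 genes 9 were tested, 4 higher and 4 lower in RTOC, and of the chromosome 13 genes 7 were tested, 0 higher and 5 lower. With all 4 channels well above background, 2 were higher and 4 lower of 7 on chromosome 1. On chromosome 13 all 7 tested genes had such channels. Of all probes of that kind, 11.8% were higher and 13.2% lower. In gene order on chromosome 1, Serpinb5 was lower, Serpinb12 higher, Serpinb13, Serpinb3a and Serpinb3d not tested, Serpinb3b, Serpinb3c and Serpinb11 higher, and Serpinb7, Serpinb2 and Serpinb8 lower, with Serpinb10 between the last 2 not past the threshold. Higher and lower genes were therefore neighbours within 748 kb. Whether this order departs from a random one was not tested.

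**Figure D4:**
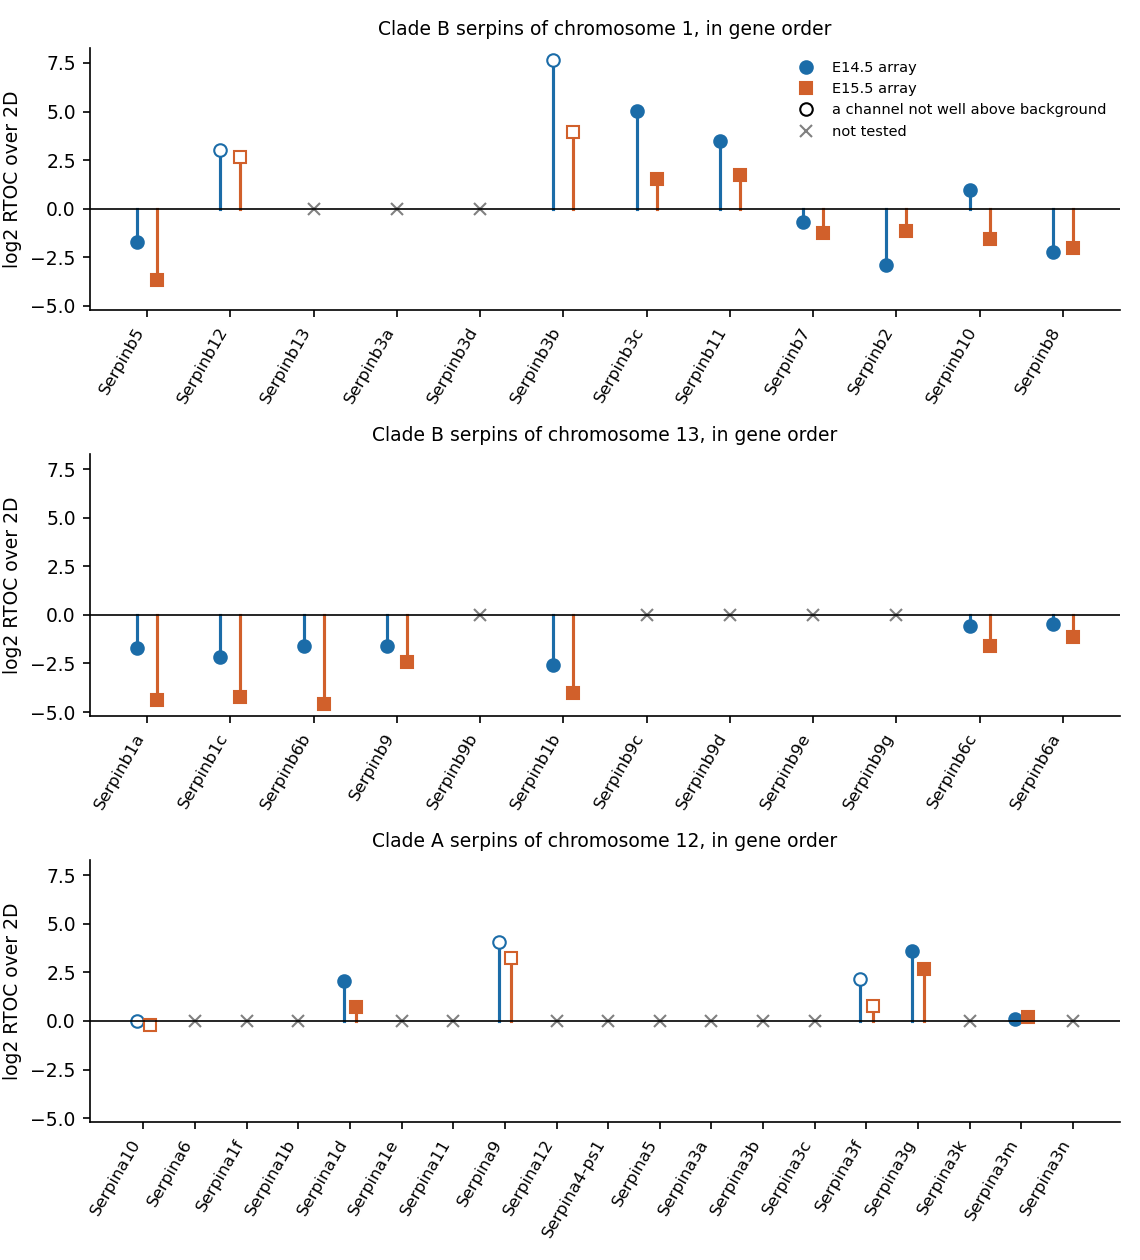
Each panel shows the serpins of a cluster from left to right in the order of their start on the chromosome, with no scale of distance, and the vertical axis gives the log2 ratio of RTOC over 2D culture on the E14.5 array (circles) and the E15.5 array (squares). Open symbols mark genes with a channel not well above background and crosses genes not tested. On chromosome 1 the raised genes Serpinb3b, Serpinb3c and Serpinb11 stand side by side, on chromosome 13 all 7 tested genes lie below 0 on both arrays, and on chromosome 12 the 4 called genes lie above 0.

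The Serpinb3 genes, mouse counterparts of the squamous cell carcinoma antigens, inhibit cathepsins and serine proteases in stratified epithelium. Serpinb3b had an RTOC intensity of 2951 (E14.5) and 245 (E15.5), did not exceed background clearly in 2D culture, and was thus at least 3.65-fold higher. Its adjusted p of 0.00711 from limma belongs to the ratio of processed signals, which has no measured 2D side, and not to this bound. Serpinb3c was at 124 and 173 in 2D culture and at 3982 and 506 in RTOC, without overlap. Its log2 ratio was 5.01 and 1.55, a mean of 3.28 ± 2.45 (SD, n = 2 arrays; SE 0.78, adjusted p = 0.0307 from limma). A second probe of Serpinb3c was well above background only in RTOC of the E14.5 array. The same held for both probes of Serpinb3a, at 523 and 259 there and at 26.6 and 27.8 in RTOC of the E15.5 array, so that gene was not tested. Serpinb3d had no channel well above background. In RTOC, Serpinb3c was thus 7.87-fold brighter for E14.5 than for E15.5 cells and Serpinb3b more so, while in 2D culture the values of Serpinb3c were within 1.40-fold and Serpinb3b was not well above background. After normexp and loess both means were 1.92 and 1.93 and neither passed (adjusted p = 0.122 and 0.127 from limma).

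Sequences before the annotated starts of the Serpinb3 genes show how close these copies are. RefSeq promoter windows of the assembly GRCm38.p6 were at hand for 44 of the 53 serpin genes, and the 250 bases before the start were searched on both strands. The letters TATAAA were found on the gene's strand for Serpinb3a, Serpinb3b and Serpinb3c. With these letters (in capitals) lined up, the 3 genes had the same base at 55 of 58 positions. The windows are on the minus strand of chromosome 1, at chr1:107052338-107052395, chr1:107161125-107161182 and chr1:107278372-107278429, and are printed on the gene's strand.
Serpinb3a: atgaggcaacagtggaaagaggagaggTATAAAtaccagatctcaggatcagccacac
Serpinb3b: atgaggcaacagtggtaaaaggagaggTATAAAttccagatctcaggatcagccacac
Serpinb3c: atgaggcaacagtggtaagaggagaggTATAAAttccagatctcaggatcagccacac
Serpinb3b and Serpinb3c differed at 1 position, and both were higher in RTOC. Serpinb3a differed from them at 3 and 2 positions, and its probes were well above background in RTOC of the E14.5 array only. The same held for the second probe of Serpinb3c. Serpinb3d, whose TATAAA match was not on the gene's strand, was not lined up. Whether the differing bases bear on the values was not tested.

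Serpinb11 and Serpinb12 lie on either side of the Serpinb3 genes, with Serpinb13, which was not tested, between Serpinb12 and them. Serpinb11 was at 288 and 742 in 2D culture and at 3225 and 2459 in RTOC, without overlap. Its log2 ratio was 3.48 and 1.73, a mean of 2.61 ± 1.24 (SD, n = 2 arrays; SE 0.45, adjusted p = 0.0125 from limma), which is 6.09-fold, and it also passed after normexp and loess, at 1.79 (adjusted p = 0.0386 from limma). Serpinb12, an inhibitor of trypsin-like proteases of epithelium, was measured in RTOC only, at 138 and 108, and was at least 1.17-fold higher there. Its other probe was not well above background in any channel. The call of Serpinb12 was lost after normexp and loess (0.31, adjusted p = 0.153 from limma).

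Markers of cornified epithelium were examined beside these genes. Krt10 was higher in RTOC with a log2 ratio of 1.13 (adjusted p = 0.0272 from limma), and Krt1 (-0.02) and Lor (-0.20) did not pass. Ivl was lower (adjusted p = 0.00827 from limma), with a log2 ratio of -2.39 on the E15.5 array, while on the E14.5 array its RTOC spot was not well above background. The summed intensity of the 4 markers was 2600 to 3604 in 2D culture and 2519 to 4356 in RTOC, which overlap. Among the epithelial markers, Krt5 was higher with 2.91, as were Foxn1 with 2.66 and Psmb11 with 3.91, and Cdh1 was lower with -1.28. Their part in the clade B values was not tested.

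Serpinb5 (maspin), an epithelial serpin not known to trap proteases, opens the cluster and was lower. Its intensity was 5702 and 9867 in 2D culture and 1754 and 776 in RTOC, without overlap. The log2 ratio was -1.70 and -3.67, a mean of -2.68 ± 1.39 (SD, n = 2 arrays; SE 0.49, adjusted p = 0.0145 from limma), and it still passed after normexp and loess at -2.20 (adjusted p = 0.0459 from limma). Serpinb8, an inhibitor of the proprotein convertase furin, closes the cluster at 459 and 462 in 2D culture and 99.0 and 114 in RTOC. Its mean of -2.12 ± 0.14 (SD, n = 2 arrays; SE 0.25, adjusted p = 0.00431 from limma) shrank to -0.69 after normexp and loess and still passed (adjusted p = 0.0421 from limma). Serpinb7 (megsin) was at 211 and 427 in 2D culture and 130 and 181 in RTOC, and its mean of -0.97 ± 0.38 (SD, n = 2 arrays) was close to the threshold (adjusted p = 0.0497 from limma). Serpinb10 (bomapin) had opposite signs on the arrays, 0.97 on E14.5 and -1.56 on E15.5, through an RTOC intensity of 1724 on the first and 363 on the second. Its mean of -0.29 did not pass (adjusted p = 0.734 from limma).

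TGANTCA, with N for any base, is wider than the core recognized by AP-1, which has C or G there. These 7 letters were found before the start of 9 of the 44 serpins and of 7.82% of 27025 genes with a window. By cluster they were found for 7 of the 11 chromosome 1 clade B genes that have a window and for 0 of 11 on chromosome 13. TATAAA was found for 14 of the 44 serpins and for 14.3% of all genes, with 7 of these 11 on chromosome 1 and 1 of 11 on chromosome 13. Those 7 include the related copies Serpinb3a, Serpinb3b, Serpinb3c and Serpinb3d, which are not independent finds. TGANTCA and TATAAA were 2 of 9 motifs searched. CACGTG and the CArG box, at 6.86% and 1.62% of all genes, were found for 0 of the 44 serpins, and GGGCGG for 7 of 44 against 35.4% of all genes. GAANNTTC, TTCNNNGAA, GGAATG and the interferon-stimulated response element were found for 3, 7, 9 and 2 serpins, against 7.73%, 8.13%, 14.4% and 3.46% of all genes. The 30 bases around the TGANTCA match nearest the start, in capitals, are shown in gene order because the match was found in genes that were higher and in genes that were lower. All lie on the plus strand of chromosome 1, starting at 106861024, 106934393, 107362227, 107422633, 107511318, 107528938 and 107589972. The windows of Serpinb2 and Serpinb8 lie inside the span annotated for the gene, before a later start.
Serpinb5: caagttgggccTGAATCAtgtcttccaatc
Serpinb12: aaaaaacaatcTGATTCAcgatcattattt
Serpinb11: aggtgaagagcTGAATCAtaacaacacagt
Serpinb7: cagggagtgtcTGAGTCAgaggctttatat
Serpinb2: gagtaaaatgtTGAATCAtacaaagaatac
Serpinb10: gcttgtgaaagTGAATCAagggtggggctc
Serpinb8: tgtgggaagtgTGAGTCAcagagtgttcaa
Of these 7 genes Serpinb12 and Serpinb11 were higher in RTOC, Serpinb5, Serpinb7, Serpinb2 and Serpinb8 lower, and Serpinb10 did not pass. Only the printed matches of Serpinb7 and Serpinb8 have G at N, and the others have A or T. A match describes letters only, and binding was not measured here.

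On chromosome 13 all 7 tested genes had negative log2 ratios on both arrays. Serpinb1a, an inhibitor of neutrophil elastase and cathepsin G, had an intensity of 9469 (2D) and 2863 (RTOC) at E14.5, and 90302 and 4327 at E15.5. Its log2 ratio was -1.73 and -4.38, a mean of -3.05 ± 1.88 (SD, n = 2 arrays; SE 0.62, adjusted p = 0.0198 from limma). Its copies Serpinb1b and Serpinb1c had means of -3.29 ± 1.01 and -3.19 ± 1.46 (SD, n = 2 arrays; adjusted p = 0.00431 and 0.00969 from limma). Serpinb6b was at 2375 and 8470 in 2D culture and 784 and 353 in RTOC, with a mean of -3.09 ± 2.11 (SD, n = 2 arrays; SE 0.68, adjusted p = 0.0251 from limma). Serpinb9, the counterpart of an inhibitor of granzyme B, had log2 ratios of -1.58 and -2.43, 4.01-fold lower on average (SE 0.31, adjusted p = 0.00879 from limma), and its second probe, at -1.24, did not pass (adjusted p = 0.0806 from limma). Serpinb6a (-0.81) and Serpinb6c (-1.07) did not pass (adjusted p = 0.0844 and 0.0622 from limma). The other 5 genes were Serpinb9b, Serpinb9c, Serpinb9d and Serpinb9g, with no channel well above background, and Serpinb9e, which was so in 2D culture of the E15.5 array only. None of the 5 called genes passed after normexp and loess, with log2 ratios from -2.93 to -0.72 and adjusted p from 0.0559 to 0.0868 from limma.

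The probes of Serpinb1a and Serpinb1b are shown because these copies were both called lower, and no capitals are used. Where on its transcript each probe lies was not determined here.
Serpinb1a: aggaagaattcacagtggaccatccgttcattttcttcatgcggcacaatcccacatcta
Serpinb1b: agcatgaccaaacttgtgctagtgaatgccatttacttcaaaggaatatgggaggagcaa
The probes of Serpinb1c, Serpinb8 and Serpinb3a are shown because they resemble each other. Lined up without gaps over 49 bases, they had the same base at 23 positions, shown in capitals.
Serpinb1c: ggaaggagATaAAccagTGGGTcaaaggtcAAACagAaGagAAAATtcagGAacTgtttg
Serpinb8: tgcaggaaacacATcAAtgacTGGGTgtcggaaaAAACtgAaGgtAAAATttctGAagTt
Serpinb3a: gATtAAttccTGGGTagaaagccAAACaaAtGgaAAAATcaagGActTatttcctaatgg
Among all 2537 pairs of probes of different serpin genes, the longest run of bases shared was 15 of 60, and the median was 6. Binding of a probe to transcripts of another copy was not tested.

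The arrays differed in size of change. In 22 of the 28 tested serpins the log2 ratio was lower on the E15.5 array than on the E14.5 array, against 48.5% of all 13506 genes, and in 7 of 7 on chromosome 13. In 2D culture the brightest probes of Serpinb1a, Serpinb1c, Serpinb1b and Serpinb6b were 9.54-fold, 7.57-fold, 6.90-fold and 3.57-fold brighter at E15.5 than at E14.5. In RTOC these probes ranged from 0.450-fold to 2.55-fold. The second probe of Serpinb1c did not show this rise in 2D culture, at 220 (E14.5) and 198 (E15.5). That of Serpinb1b fell there from 138 to 21.7, the latter not well above background. Serpinb1a and Serpinb6b are read by 1 probe each. Serpinb2 was 7.40-fold brighter in 2D culture at E14.5 than at E15.5, and its second probe was also brighter at E14.5 (7668 and 1093). The summed intensity of the 7 thymic epithelial markers in 2D culture was 302386 at E14.5 and 647911 at E15.5. Most of that difference came from Krt8, at 132043 and 392579. Epcam (7503 and 15077) and Cdh1 (25934 and 51549) were also brighter at E15.5, while Krt5 was at 23414 and 23576. The part of these markers in the serpin values was not tested. With 1 array for each stage, no difference between stages was tested.

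**Figure D5:**
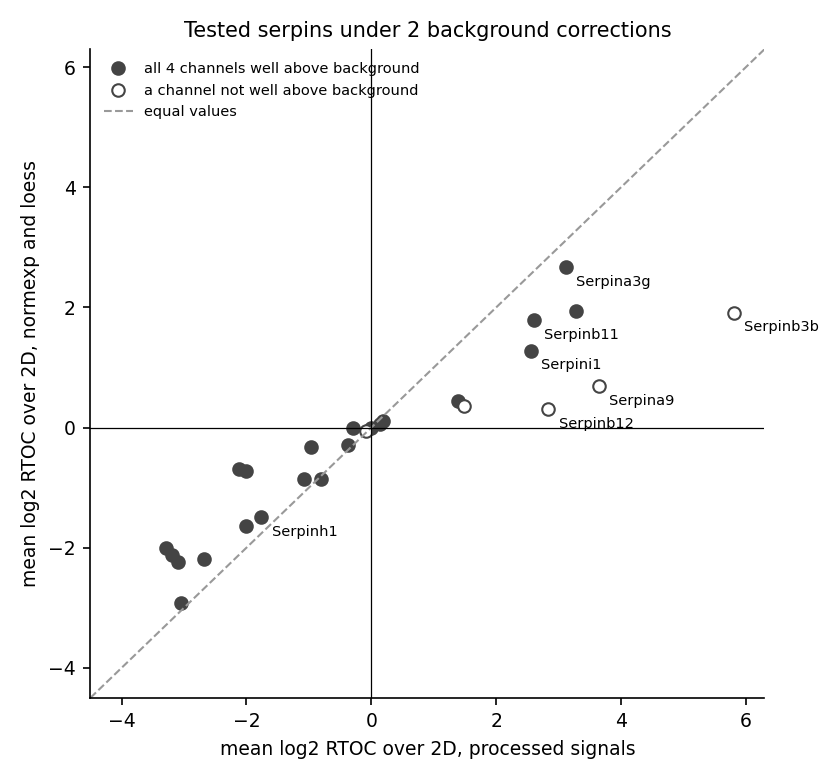
Each point is a serpin shown, with the mean log2 ratio of RTOC over 2D culture from processed signals on the horizontal axis and that after normexp background correction and loess on the vertical axis. Filled points have all 4 channels well above background, open points do not, and the dashed line marks equal values. Points lie between the line and 0 or close to the line, with Serpina3g near it and Serpinb12, Serpina9 and Serpinb3b far below it.

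All 20 called serpins kept their direction after normexp and loess, and 7 of them passed the threshold there, among them Serpini1, Serpina3g, Serpina9, Serpinb11, Serpinb5 and Serpinb8. That correction adds an offset of 50 to every signal, so ratios of dim probes are smaller by construction. Bright genes also lost the call there, among them Serpinh1 (-1.50, adjusted p = 0.0644 from limma). Serpinb1a did so at -2.93, against -3.05 as reported (adjusted p = 0.0680 from limma). Why bright genes lost the call was not tested. Over the 13 alternatives that tested it, the adjusted p from limma or the methods' test ranged from 0.012 to 0.426 for Serpinh1, from 0.0107 to 0.454 for Serpinb2, from 0.000205 to 0.332 for Serpini1 and from 0.000127 to 0.357 for Serpina3g. The upper end lay between 0.328 and 0.483 for each of the 20 genes.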

How the data were processed

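The authors ran Agilent Feature Extraction, version 11.5.1.1 in the submitters' processing notes and 9.1.3.1 in the file headers, and deposited for each spot a mean and a processed signal, both an intensity, the latter background-subtracted and dye-normalized. The deposited log10 ratio of Cy5 over Cy3 and the deposited series values, also log10, served as alternatives. Log2 values were computed here. Quantile normalization is the step the methods name. After removal of control spots and of outlier spots (5 and 1), quantile normalization was run over the 4 channels, and spots of a probe were averaged. Of 41174 probes, 23685 were tested with limma 3.58.1 in R 4.3.3 (intercept, eBayes, two-sided, Benjamini-Hochberg over all tested probes). With 1 residual degree of freedom, p-values rest on a spread shared over probes. "At least" folds use signals after normexp, loess and Aquantile. They compare the bright culture's mean with the dim culture's signal, or with the lowest signal well above background where that was higher. These folds are open to dye bias. The small number of arrays limits the precision. The limma fit and the adjustment of p-values were tested on simulated log2 ratios with spreads taken from the fit. The normalization, the filter and the choice of probe were not simulated. Genes past the threshold, inhibitors of plasminogen activators, Serpinh1 and Serpinf1 were named by rule. Other members were counted, and those of them given with values were chosen after the values were seen. A member is not reported here by name and is in the counts only. The members, gene lists and motifs were chosen with earlier results of these data known. Of the lists fixed, T lineage (0 of 2 tested passed), mast cell (3 of 4 higher), endothelial (3 of 4 higher), platelet (Pf4 lower, the others not above background) and serine protease genes (2 higher, 3 lower of 11 tested) are given here only. Of the genes called higher, the endothelial Cdh5, Pecam1 and Tek, the mast cell gene Cpa3 and the protease gene Gzmb had no measured level in 2D culture. The endothelial gene Kdr, well above background in every channel, did not pass. Over all probes tested, 15.3% were higher. RefSeq gave names, positions and promoters (GRCm38.p6). All 53 serpin symbols matched.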

Additional observations from a re-analysis of the deposited data

How the results depend on the processing

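The 20 called serpins kept their direction under every alternative that tested them. Alternatives that change only the filter on probes or the test use the reported log2 ratios, so the direction could not change there. The counts of serpins higher and lower in RTOC, 9 and 11 as reported, were 4 and 3 after normexp and loess. With Aquantile added they were also 4 and 3, by construction, because that step leaves the log2 ratios within an array unchanged. After normexp and median centring they were 4 and 2. For at least 2-fold on both arrays, 7 and 10 as reported, the counts were 2 and 6, 2 and 6, and 3 and 4. Without the filter on dim probes no serpin passed (0 and 0; 13 had an unadjusted p under 0.05 by limma), and the methods' t-test gave 0 and 0 after adjustment and 3 unadjusted. With both channels of both arrays required, 5 were higher, 4 of the tested genes being at least 2-fold so. Each array pairs its cultures, and with no replicate block 6 were higher and 6 lower; Serpinb1a, Serpinb1b, Serpinb1c, Serpinb2 and Serpinb3c were among those that lost the call. From a single array the 2-fold counts were 7 to 9 higher and 10 to 14 lower. The ratio of Serpinf1 was -0.014 without the E15.5 array and 0.39 without the E14.5 array. The other alternatives stayed within 1.5 times of the counts. The causes were not tested, other than that an offset shrinks dim ratios and a filter changes the genes tested. Signal over background limits Serpinb3b, Serpinb12, Serpina9 and Serpina3f, which have no measured level in 2D culture.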
